A study of Homo sapiens with 6 samples.

Results

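Genes whose symbol is LINC followed by a number are those that the naming committee set aside for long intergenic non-protein-coding RNAs, transcripts that lie between protein-coding genes and have no other established name. The table of the *RBMS3* knockdown experiment listed 28 such genes among 15917 rows, or 0.176% of its rows, and these 28 were chosen by their symbol alone. Long non-coding RNAs are spliced and polyadenylated much like messenger RNAs, and are often lower in level and more restricted to certain tissues. Some act in the nucleus near their own gene, some serve as host transcripts from which microRNAs are cut, and some were later found to encode small proteins.

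The cells were MDA-MB-231, an established line of triple-negative, basal-like breast cancer. The 6 libraries were labelled as 2 biological replicates each with a control hairpin (shCTRL) and with either of 2 hairpins against *RBMS3* (shRBMS3-B3 and shRBMS3-C3), all of genotype WT. The study's methods name 2 hairpins in a lentiviral vector with puromycin selection but do not tie their names to B3 and C3. *RBMS3* encodes an RNA-binding protein of the single-stranded interacting protein family, which binds A- and U-rich RNA. What was analysed here is 1 value a gene, the authors' mean normalized count over the libraries of their comparison, which has no error and no number of replicates attached. Values per library were not analysed here and their depth is unknown, so no statement below compares knockdown with control cells, and every comparison between genes is a description with no test. *RBMS3* itself was listed at a mean normalized count of 272.

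The listed genes carried the markers of the labelled line. Of 10 genes fixed as markers of MDA-MB-231, 9 were listed, from 69336 for *VIM* (vimentin) down to 313 for *LOX*, and *SPARC* was not listed. Of 7 genes of luminal or other breast cancers, *ERBB2* (1557), *GATA3* (171) and *CDH1* (31.6) were listed. None of 4 leukocyte markers was listed, 1 of 3 endothelial markers was (*PECAM1*, 69.0), and 1 of 4 fibroblast markers was (*COL1A1*, 192).

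The 28 genes spanned a range of 31.8-fold in mean normalized count, from 27.9 for *LINC01012* to 887 for *LINC00506*, with a median of 115. The lowest value of any listed gene was 26.7, so genes below that level are not listed, and *LINC01012* and *LINC00337* (27.9) stand just above it. The median of all listed genes was 364, and 6 of the 28 genes exceeded it. These 6 were *LINC00506*, *LINC00461* (864), *LINC00273* (850), *LINC00205* (789), *LINC00511* (524) and *LINC01002* (430). The 4 highest held 47.8% of the summed level of the 28 genes, and the whole set held 0.0322% of the sum over all listed genes.

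**Figure D1:**
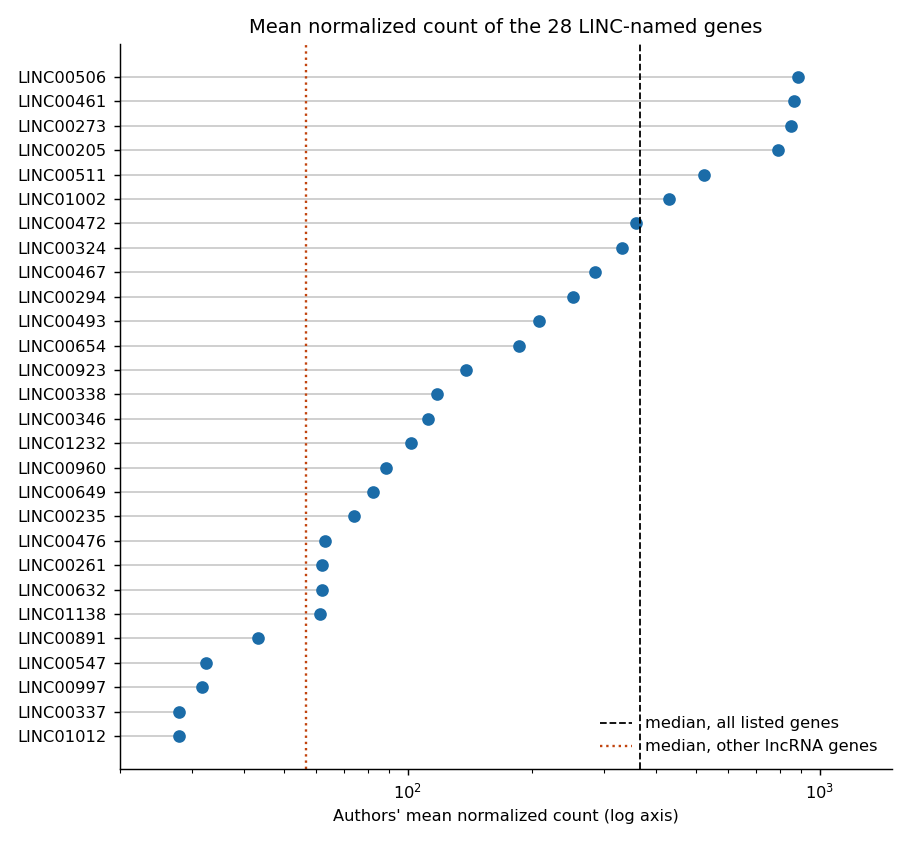
Each point is the authors' mean normalized count of a LINC-named gene on a log axis, with the genes in order of level; the dashed line marks the median of the listed genes with a GENCODE identifier (366) and the dotted line that of other lncRNA genes (56.8). The 6 genes from *LINC00506* to *LINC01002* lie right of the dashed line, and the 5 genes from *LINC00891* down lie left of the dotted line.

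In mean normalized count, without regard to length, the set's median was above that of other lncRNA genes and below that of coding genes. The 1317 other listed genes annotated as lncRNA in GENCODE release 44 had a median mean normalized count of 56.8, and 7.29% of them exceeded the median of all listed genes, against 21.4% of the 28. Listed genes with a symbol ending in AS and a number, the antisense-named lncRNAs, had a median of 83.0 over 54 genes. The 13 *SNHG* genes, which host small nucleolar RNAs in their introns, had a median of 871. For the 12407 protein-coding genes the median was 526.

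Symbol and identity did not always match. By their Ensembl identifiers, 27 of the 28 genes are annotated as lncRNA and 1 as protein coding, and 23 keep their symbol in GENCODE release 44. The 5 that changed are *LINC00493* (now *SMIM26*), *LINC00338* (*SNHG20*), *LINC00346* (*PRECSIT*), *LINC00476* (*ERCC6L2-AS1*) and *LINC00337* (*ICMT-DT*). In the other direction, 198 listed genes carry a LINC symbol in that release, and 175 of them stand in the table under an older clone-based or other symbol. Those 175 had a median mean normalized count of 52.6 and reached 1641 at the highest. The 28 are therefore the LINC genes that kept such a symbol in the authors' table, not all LINC genes of these cells.

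The clearest case is *LINC00493*, the only member annotated as coding (ENSG00000232388, chr20:18567347-18569563 on hg38, plus strand). Its current name is *SMIM26*, a small protein of mitochondria, and its mean normalized count was 209. Another member with a reported small protein is *LINC00467* (chr1:211382736-211435570, plus strand; 284), whose product associates with the mitochondrial ATP synthase, although the annotation keeps it as lncRNA. From a list of 8 genes first named LINC and later given a small protein, 6 were listed, and only these 2 under their LINC symbol. The other 4 were listed at 174 (*MTLN*, first *LINC00116*), 216 (*SMIM30*, first *LINC00998*), 242 (*NBDY*, first *LINC01420*) and 309 (*BRD3OS*, first *LINC00094*). In mean normalized count, without regard to length, all 6 fell below the median of all listed genes. Per kb of representative transcript, *LINC00493* (426) was above the median of all listed genes (137) and *LINC00467* (80.3) below it.

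A list of 27 LINC genes studied in cancer gave 17 listed genes, of which 5 carried their LINC symbol. *LINC00511* (ENSG00000227036, chr17:72290091-72640472, minus strand), reported as growth-promoting in breast cancer, had 524, the highest of the 5. *LINC00472* (ENSG00000233237, chr6:71187161-71420745, minus strand), reported as lower in aggressive breast tumours, had 358. *LINC00324* had 331, *LINC00346* had 112 and *LINC00261* had 62.1. Among those listed under another symbol, *NORAD* (first *LINC00657*), a cytoplasmic RNA that binds Pumilio proteins, had 5200 and *CYTOR* (first *LINC00152*) had 1783. Both exceeded every member of the set.

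Annotated microRNA genes lie inside 4 members on their own strand, and the mature sequences show what these host transcripts can carry. The sequences are those of RefSeq on GRCh38.p14, 5′ to 3′, with the seed (bases 2 to 8) in capitals.
hsa-miR-9-5p: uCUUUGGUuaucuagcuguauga
hsa-miR-9-3p: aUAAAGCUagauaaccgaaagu
hsa-miR-30a-5p: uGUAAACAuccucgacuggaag
hsa-miR-30c-5p: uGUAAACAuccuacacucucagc
hsa-miR-6516-5p: uUUGCAGUaacaggugugagca
hsa-miR-5087: gGGUUUGUagcuuugcuggcaug
The arms hsa-miR-30a-5p and hsa-miR-30c-5p share their seed, and no other pair of these 6 does.

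*LINC00461* (ENSG00000245526, chr5:88507546-88691057, minus strand) holds *MIR9-2*, 1 of the genes for miR-9, a microRNA of neural development, and RefSeq names the locus *MIR9-2HG*. At 864 it was second in the set, while its nearest listed coding gene, the transcription factor gene *MEF2C* 26060 bases away, had 102. *LINC00472* holds both *MIR30A* and *MIR30C2*, members of the miR-30 family. *LINC00338* (chr17:77086716-77099902, plus strand; 118) holds *MIR6516*, and *LINC01138* (chr1:148290889-148519604, minus strand; 61.3) holds *MIR5087*. The libraries were made from total RNA and fragments of a hairpin gene cannot be told from fragments of the host there, so these values are not levels of mature microRNAs.

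The table had separate rows for short genes inside 2 of these hosts. Inside *LINC00338* the small Cajal body RNA gene *SCARNA16* (187 bases) was listed at 819 and *MIR6516* (81 bases) at 176, both above the host's 118. Inside *LINC01138* the U1-type small nuclear RNA genes *RNVU1-1* (164 bases) and *RNU1-13P* (162 bases) were listed at 394 and 153, again above the host's 61.3. How fragments were divided between host and inner gene is not given in the sources used here. A further 2 members held listed genes on their own strand, *LINC00472* with 1 of 3978 bases (129) and *LINC01002* with a pseudogene of 676 bases (57.6), each below its host.

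Levels of different genes can be compared only per length. Each gene was given the length of 1 representative transcript, and the mean normalized count per kb of the 28 genes ran from 2.92 for *LINC00632* to 1533 for *LINC00461*, with a median of 90.4. For all listed genes the median was 137, and 9 of the 28 exceeded it. *LINC01002* (910 per kb), *LINC00273* (585), *LINC00506* (436), *LINC00493* (426) and *LINC00472* (362) followed *LINC00461*. *LINC00338* (223), *LINC00511* (179) and *LINC00324* (158) also exceeded the median of all listed genes, and *LINC00649* (120) came next below it.

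The choice of transcript set much of that order. *LINC00461* has 45 annotated transcripts, and its representative is 564 bases long while its longest is 8262 bases, so its level per kb was 1533 with the first and 105 with the second. *LINC00472*, with 41 transcripts, went from 362 to 37.6 per kb in the same way, and *LINC00649* from 120 to 9.01. *LINC00273*, a gene of 1 exon and 1 transcript, stayed at 585 under every length. With the longest transcript the set's median was 34.4 per kb, and with the union of exons 17.0. For other listed lncRNA genes the medians per kb were 39.9, 28.2 and 20.8 with the representative transcript, the longest and the union. The set's median was thus the higher with the first 2 lengths and the lower with the union of exons. Of the 28 genes, 4 exceeded the median of all listed genes under each of the 3 lengths, *LINC00506*, *LINC00273*, *LINC00324* and *LINC00493*.

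**Figure D2:**
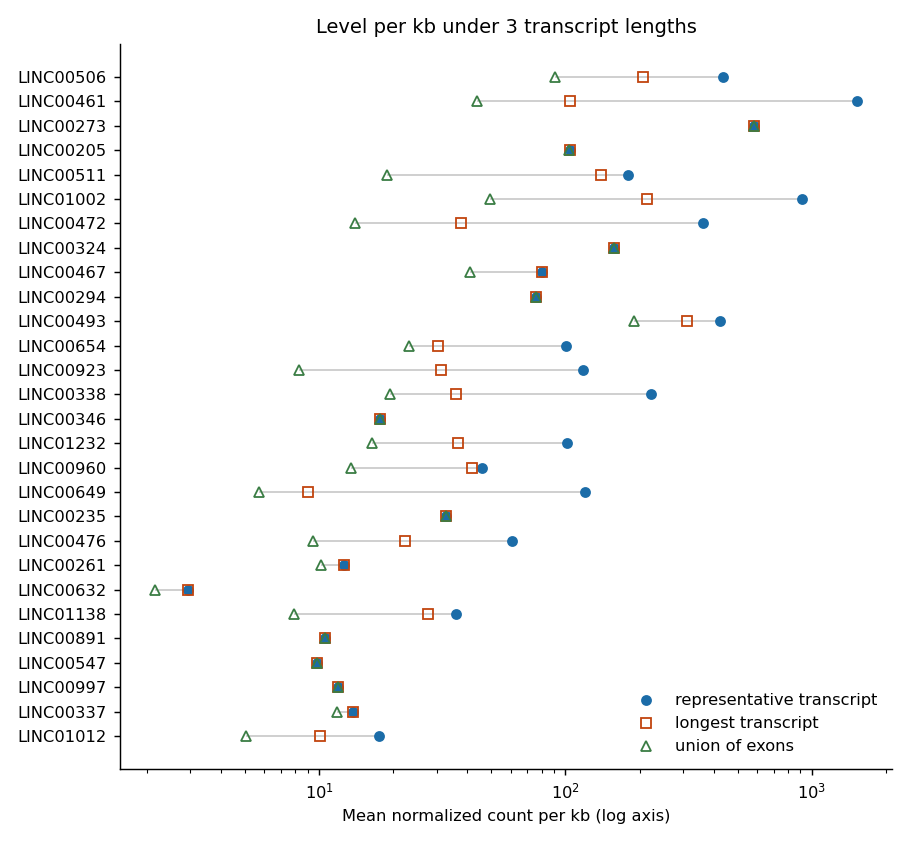
For each LINC-named gene, the mean normalized count per kb (log axis) is drawn with the length of the representative transcript (filled circles), of the longest transcript (squares) and of the union of exons (triangles). The 3 symbols coincide for single-transcript genes such as *LINC00273* (585) and spread widely for *LINC00461*, from 43.7 to 1533.

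In transcript length and exons the members were nearer to other lncRNA genes, and in annotated transcripts nearer to coding genes. The representative transcripts ran from 473 bases (*LINC01002*) to 21234 bases (*LINC00632*, whose locus also gives the circular RNA CDR1as), with a median of 1981 bases, against 1824 for other listed lncRNA genes and 3440 for coding genes. Their median number of exons was 4, against 3 and 9. A single exon was annotated for 5 members, *LINC00273*, *LINC00294*, *LINC00346*, *LINC00235* and *LINC00997*. The median number of annotated transcripts was 8.5 in the set, 2 for other lncRNA genes and 8 for coding genes. *LINC00511* had 107.

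The name intergenic fits the gene bodies only in part. Of the 28 genes, 10 overlap a protein-coding gene and 18 overlap none. The share with an overlap, 35.7%, was near the 39.9% of all listed genes and the 37.2% of coding genes. It compares with 59.6% of other listed lncRNA genes, 87.0% of the antisense-named genes and 13.1% of the 175 LINC genes under other symbols. On the same strand 4 members overlap a coding gene: *LINC00294* with *TCP11L1*, *LINC00338* with *SEC14L1*, *LINC00493* with a coding gene that has no name in the annotation (389) and *LINC01138* with *PPIAL4G*. *SEC14L1* was listed at 3237, and it shares 194 of the 498 words of 31 bases in the representative transcript of *LINC00338*. *LINC00472* covers *OGFRL1* on the opposite strand, listed at 3070.

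Head to head pairs were found for 3 members, which start within 1 kb of the start of a coding gene on the opposite strand, an arrangement often served by a shared promoter region. *LINC00205* (ENSG00000223768, chr21:45288035-45297806, plus strand) starts 137 bases from *POFUT2*, which encodes a protein O-fucosyltransferase. The level of *LINC00205* was 789 and that of *POFUT2* 843, or 105 and 295 per kb. *LINC00649* (ENSG00000237945, chr21:33915534-33977703, plus strand) starts 280 bases from *ATP5PO* (listed as *ATP5O*), a subunit gene of the mitochondrial ATP synthase, with the first stretches of both genes overlapping. There the levels were 82.2 and 1011. *LINC00235* (ENSG00000277142, chr16:525155-527407, minus strand) starts 305 bases from *CAPN15*, a calpain gene, and the levels were 73.9 and 1284. The coding partner was the higher in all 3 pairs.

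The sequences at these paired starts are given next. The first 2 stretches are read from hg38 on the plus strand, chr21:45287898-45288035 for the *LINC00205* pair and chr21:33915534-33915814 for the *LINC00649* pair. The third is the RefSeq promoter of *LINC00235*, 250 bases before to 50 after its start, at chr16:527358-527657 on the minus strand of GRCh38.p14. Capitals mark the GC box letters GGGCGG on either strand.
LINC00205 to POFUT2: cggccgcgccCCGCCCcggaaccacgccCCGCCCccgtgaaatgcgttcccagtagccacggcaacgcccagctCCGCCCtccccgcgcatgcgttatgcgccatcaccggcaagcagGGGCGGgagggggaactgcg
LINC00649 to ATP5PO: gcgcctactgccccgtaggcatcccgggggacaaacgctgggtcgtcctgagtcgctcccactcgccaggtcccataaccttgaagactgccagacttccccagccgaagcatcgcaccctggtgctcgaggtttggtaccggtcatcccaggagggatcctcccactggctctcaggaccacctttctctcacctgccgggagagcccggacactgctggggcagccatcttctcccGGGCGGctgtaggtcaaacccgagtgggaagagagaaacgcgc
LINC00235: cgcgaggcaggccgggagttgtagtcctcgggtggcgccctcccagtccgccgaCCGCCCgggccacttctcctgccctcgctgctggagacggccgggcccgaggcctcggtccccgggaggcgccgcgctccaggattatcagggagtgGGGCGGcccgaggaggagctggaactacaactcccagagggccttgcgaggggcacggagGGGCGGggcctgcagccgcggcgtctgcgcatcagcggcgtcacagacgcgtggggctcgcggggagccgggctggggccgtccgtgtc
The letters occur 4 times in the first stretch, 1 time in the second and 3 times in the third. Over 35116 RefSeq promoters of 300 bases, 45% hold them at least 1 time, as do 36% of the members' 25 promoters. The first stretch is 74.6% G and C with 19 CpG pairs, and the second 64.1% with 18.

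Just outside that window, *LINC00337*, now named for its place as the divergent transcript of *ICMT*, starts 1280 bases from that gene by its outermost start and 268 bases by its nearest transcript start. *ICMT*, which methylates prenylated proteins, was listed at 3358 and *LINC00337* at 27.9. *LINC00476*, antisense to the DNA repair helicase gene *ERCC6L2*, starts 4785 bases from it, and the levels were 63.0 and 638. The share of members within 1 kb, 10.7%, compares with 16.4% of all listed genes and 24.1% of other listed lncRNA genes. It was 42.6% for the antisense-named genes and 2.86% for the LINC genes under other symbols.

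Base composition at the start varied widely between members. RefSeq held a promoter for 25 of the 28 genes, and the 1 nearest the annotated start was taken. Its start lay far from the annotated one for *LINC01138* (59684 bases), *LINC01002* (44335) and *LINC00654* (22113). It lay 1993 bases away for *LINC00997*, 1927 for *LINC00338*, 1548 for *LINC00337* and 1221 for *LINC00923*. Those windows do not describe the annotated start, although they count among the 25. *LINC00506* and *LINC00511* have G- and C-rich starts with 23 and 35 CpG pairs in 300 bases, and *LINC00261* and *LINC00547* have A- and T-rich starts with 8 and 0. These 4 are shown as examples of either kind, chosen after their composition was seen. The 5 highest members had 18 to 35 CpG pairs, while *LINC00324* (331) and *LINC00294* (252) had 3 and 1, and *LINC00235* (73.9) had 36. In the lines below, capitals mark GGGCGG in the first 2 and TATAAA in the last 2, on either strand; the positions are chr3:87089030-87089329 (plus), chr17:72640423-72640722 (minus), chr20:22578593-22578892 (minus) and chr13:37534690-37534989 (plus).
LINC00506: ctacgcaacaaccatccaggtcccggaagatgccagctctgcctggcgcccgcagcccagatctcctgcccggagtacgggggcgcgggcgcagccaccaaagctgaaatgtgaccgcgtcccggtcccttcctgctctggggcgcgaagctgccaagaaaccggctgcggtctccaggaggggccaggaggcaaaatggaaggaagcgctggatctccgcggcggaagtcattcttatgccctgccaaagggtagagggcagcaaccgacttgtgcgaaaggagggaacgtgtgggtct
LINC00511: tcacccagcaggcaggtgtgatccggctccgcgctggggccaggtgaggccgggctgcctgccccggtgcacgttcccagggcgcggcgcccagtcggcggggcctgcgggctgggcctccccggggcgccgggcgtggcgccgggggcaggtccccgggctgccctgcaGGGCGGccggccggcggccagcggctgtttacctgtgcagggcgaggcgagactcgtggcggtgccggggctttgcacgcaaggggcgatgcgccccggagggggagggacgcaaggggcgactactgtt
LINC00261: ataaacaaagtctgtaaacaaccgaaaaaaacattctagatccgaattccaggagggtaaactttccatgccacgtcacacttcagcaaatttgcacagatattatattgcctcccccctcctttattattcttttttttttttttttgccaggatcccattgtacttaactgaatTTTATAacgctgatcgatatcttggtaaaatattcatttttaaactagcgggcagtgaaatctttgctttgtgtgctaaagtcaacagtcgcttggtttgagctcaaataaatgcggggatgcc
LINC00547: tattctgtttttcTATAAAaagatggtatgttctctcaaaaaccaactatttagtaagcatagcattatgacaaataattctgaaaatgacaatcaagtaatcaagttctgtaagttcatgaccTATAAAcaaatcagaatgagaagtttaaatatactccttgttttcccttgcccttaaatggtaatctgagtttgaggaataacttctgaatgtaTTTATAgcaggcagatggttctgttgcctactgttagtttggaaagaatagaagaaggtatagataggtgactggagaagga
GGGCGG is absent from the *LINC00506* window, and TATAAA occurs 1 time in that of *LINC00261* and 3 times in that of *LINC00547*. TATAAA is in 11.5% of all RefSeq promoters and in 12% of the members' own. The members' median of observed over expected CpG was 0.637, against 0.579 over all promoters.

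Most members stood below their nearest listed coding gene. Per kb of representative transcript, 18 were lower and 10 higher than that neighbour, and among the 22 with a neighbour within 100 kb, 13 were lower. *LINC00461* was 110 times *MEF2C* per kb, the widest gap upward, a value that rests on its short representative transcript. *LINC00273* was 7.31 times *ZNF267*, which lies 2241228 bases away, and *LINC00654* (187) was 3.67 times *GPCPD1*. *LINC00506* was 2.60 times *CHMP2B*, a gene of the ESCRT-III membrane machinery 68908 bases away. *LINC00472*, *LINC00467* and *LINC00476* were within 4% of their neighbours, again by representative transcripts. With the longest transcript *LINC00472* fell from 362 to 37.6 per kb and *LINC00476* from 60.6 to 22.3, while *LINC00467* stayed at 80.3. The neighbours were kept at their representative transcripts, and the numbers lower and higher were not counted again with other lengths.

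Downward gaps were wider. The widest was that of *LINC00632* (62.1), at 0.00128 of the level per kb of *SPANXB1*, which lies 209379 bases away. That value rests on a representative transcript of 21234 bases. *LINC00261* (ENSG00000259974, chr20:22547663-22578642, minus strand), known from the differentiation of endoderm, lies 2356 bases from *FOXA2*, the gene of an endoderm transcription factor. *FOXA2* was listed at 1227 and *LINC00261* at 62.1, a ratio of 0.0262 per kb. *LINC01012*, in the histone gene region of chromosome 6, had 0.00663 of the level per kb of *HIST1H2BL*, and *LINC00337* 0.0196 of that of *ICMT*. Across the 28 genes the rank correlation of mean normalized count between member and neighbour was -0.53, and per kb it was -0.23. Both are descriptions over genes of the same libraries.

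**Figure D3:**
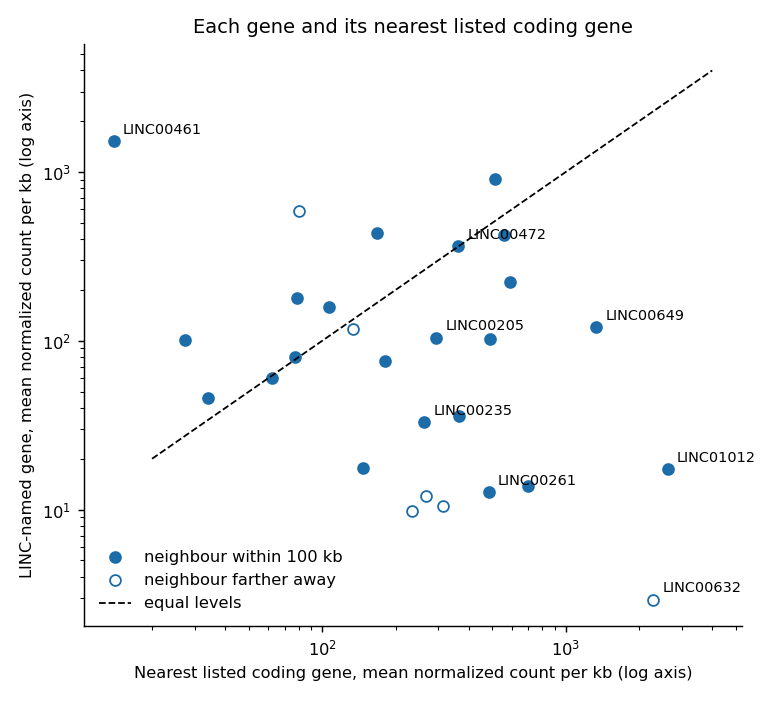
Each point sets the mean normalized count per kb of a LINC-named gene (vertical, log axis) against that of its nearest listed coding gene (horizontal, log axis), with open circles for neighbours more than 100 kb away. Below the dashed line of equal levels lie 18 genes and above it 10, with *LINC00461* farthest above.

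Repeated sequence bears on how surely a level belongs to a gene, because fragments that match several places must be shared out. The representative transcript of each member was cut into all words of 31 bases, and each word was looked for in the rest of the genome on both strands and in annotated transcripts of other genes. *LINC00472*, *LINC00338* and *LINC00235* had no word elsewhere in the genome. Over 10% of words occurred elsewhere for 14 members and over 25% for 5. In transcripts of other genes over 10% of words were found for 6 members, or 21.4%, against 38.9% of other listed lncRNA genes and 20.8% of coding genes.

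*LINC00891* (ENSG00000281852, chrX:71697196-71706455, plus strand; 43.3) was almost wholly duplicated, with 4027 of 4083 words found elsewhere. The copy lies inverted on the same chromosome, at chrX:71775141-71784728, and no gene is annotated there in GENCODE release 44. *LINC01002* (ENSG00000282508, chr19:198264-246544, minus strand; 430) shared 342 of 443 words with transcripts of other genes, among them *LINC01347* with 239. It also shared 188 with a gene listed as *RP11-378J18.9* at 219. *LINC00654* shared 553 of 1826 words with a neighbouring lncRNA gene that is not listed. *LINC01138* shared 364 of 1679 words with other genes, such as *LINC01145* with 251 and *LINC00623* (listed as *CH17-118O6.2*, 52.6) with 184. *LINC00493* shared 115 of 460 words with the unnamed coding gene that it overlaps (389), and *LINC00294* shared 413 of 3276 with other genes. For *LINC00997*, 784 of 2616 words occurred elsewhere in the genome. The levels of these genes are uncertain to that extent, since the division of shared fragments is part of the authors' values.

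**Figure D4:**
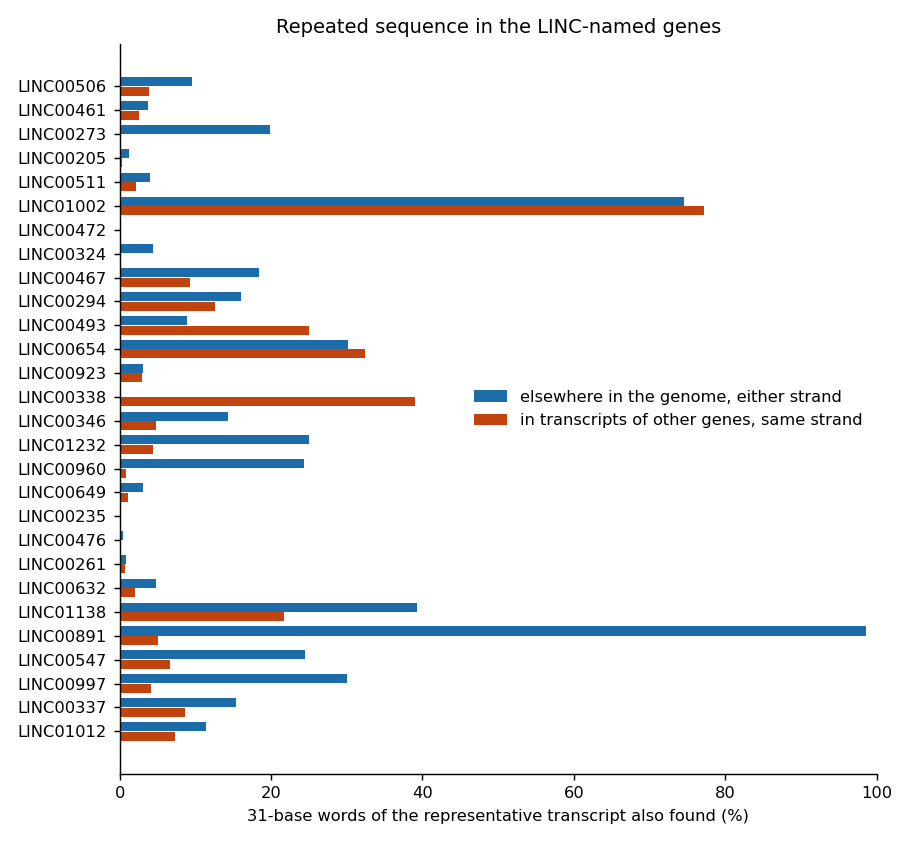
Bars give, for each LINC-named gene in order of level, the percentage of 31-base words of its representative transcript found elsewhere in the genome on either strand (blue) and in transcripts of other genes on the same strand (orange). *LINC00891* reaches 98.6% in the first measure and *LINC01002* 77.2% in the second.

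*LINC00273* (ENSG00000256642, chr16:34158585-34160036, minus strand; 850), below only *LINC00506* and *LINC00461* in level, has another kind of shared sequence. Its 1452 bases are only 29.6% A and U, the lowest of the 28, and 282 of its 1422 words occur elsewhere, 199 of them on chromosome 22 and 153 on chromosome 20. In ribosomal RNA genes lie 24. They form 1 run of 54 bases, at chr16:34158806-34158859 on hg38, which the 45S precursor gene *RNA45SN1* holds in the opposite orientation; the strand of *LINC00273* is shown.
LINC00273: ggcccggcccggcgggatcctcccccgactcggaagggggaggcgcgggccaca
The 18S, 5.8S and 28S genes themselves share at most 12, 9 and 14 bases in a row with the transcript. Only exact runs within the transcript were looked for. Similar sequence with scattered differences, or any ribosomal sequence before the start of the transcript, would not be seen. Whether fragments of ribosomal RNA add to the level of *LINC00273* was not tested.

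The experiment was made to examine the RNAs that *RBMS3* targets, and the study's methods write its element with AUA at the core. It was counted here over whole representative transcripts, coding sequence included, whereas the study looked at it in 3′ untranslated regions. The element has 7 bases: A, G or U, then A or U, then AUA, then A or U, then A. A match can therefore hold AAUAAA, the letters of the polyadenylation signal, which 60.7% of members carry. Matches that overlap were each counted, and none was tested as a site of RBMS3 binding. In the set 20 of 28 genes, 71.4%, hold at least 1 element, against 76.9% of other listed lncRNA genes and 87.5% of coding genes. Per kb the medians were 0.980, 1.21 and 1.24. The 8 genes without it are *LINC00461*, *LINC00273*, *LINC00472*, *LINC00338*, *LINC00649*, *LINC00235*, *LINC00337* and *LINC01012*. In their longest transcripts *LINC00461* and *LINC00472* hold 28 and 33, and *LINC00649*, *LINC00338* and *LINC01012* hold 4, 2 and 1.

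*LINC00632* (ENSG00000203930, chrX:140709562-140793215, plus strand) held 86 elements, 4.05 per kb, with up to 13 starting within 200 bases. *LINC00261* held 21 in 4912 bases, 4.28 per kb, the densest of the set, and some of these overlap. *LINC00547* held 11, *LINC00467* and *LINC00891* 9 each, and *LINC00997* 7. *LINC00506* held 6, of which 4 start within 200 bases of each other, with some overlap among these 4. The number of elements followed transcript length (rank correlation 0.73 over the 28 genes) and the number per kb followed A+U content (0.73), as descriptions across genes. Mean normalized count and elements per kb had a rank correlation of -0.20.

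**Figure D5:**
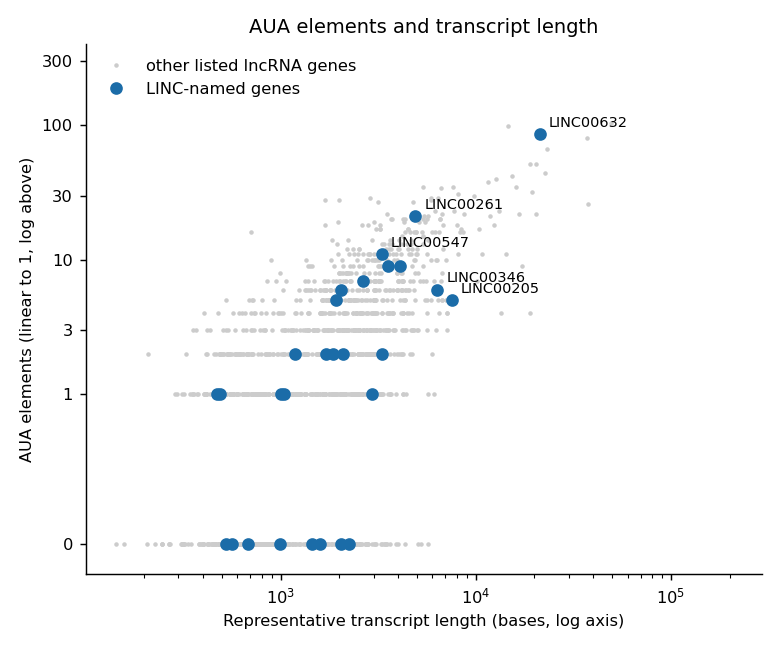
The number of AUA elements in the representative transcript (vertical, linear up to 1 and log above) is drawn against transcript length in bases (log axis) for the 28 LINC-named genes (blue) and other listed lncRNA genes (grey). *LINC00632* with 86 elements and *LINC00261* with 21 lead the set, and *LINC00205*, with 7553 bases, holds 5.

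Sites of these genes are shown with 10 bases on either side and 1 element in capitals, as DNA letters on the gene's strand. Both *LINC00261* windows hold another counted element, ATATAAA, which overlaps the marked one and is partly in small letters. The first is from the cluster of *LINC00506* at chr3:87157600-87157626, and the other two are from *LINC00261* at chr20:22562991-22563017 and chr20:22564354-22564380.
LINC00506: aaattaatatTTATATAttaatacata
LINC00261 site 1: tcttatatcaGTATATAaattggttta
LINC00261 site 2: agttttcaacAAATATAaactgaggag

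At the low end of the set, *LINC00891* (43.3), *LINC00547* (32.5), *LINC00997* (31.6), *LINC00337* and *LINC01012* (both 27.9) had 9.80 to 17.4 counts per kb. Between them and the 15 highest lay *LINC01232* (102), *LINC00960* (88.5), *LINC00649*, *LINC00235*, *LINC00476*, *LINC00261*, *LINC00632* and *LINC01138*. Among the 15 highest, *LINC00294* (252), *LINC00923* (139) and *LINC00654* had 76.3, 118 and 101 counts per kb of representative transcript. *LINC00923* lies 772889 bases from its nearest listed coding gene, *IGF1R*, the receptor gene for insulin-like growth factor 1, at 1634.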

How the data were processed

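Total RNA of MDA-MB-231 cells was taken through a stranded total RNA kit with depletion of ribosomal cDNA and sequenced in paired ends by the authors. The submitters' processing notes name Salmon, DESeq2 and hg38, without versions or roles. The authors deposited 1 table of their comparison of *RBMS3* knockdown with control cells. Its deposited signal, the mean normalized count, is a pooled value per gene without error. The study describes this comparison as 2 biological replicates of knockdown against 2 of control cells, but which hairpin's libraries entered it, or whether that number is per hairpin, is not given in the sources used here. The table also holds fold changes, standard errors, test statistics, p-values and adjusted p-values of the authors' own comparison, which were not used. No test was run, and depth is unknown.

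Genes were chosen by symbol, LINC and digits. Members and lists were chosen with earlier results of these data known. Identifiers were matched to GENCODE release 44 on GRCh38 (15829 of 15917 rows). Transcript lengths, overlaps, starts, elements and words of 31 bases (194 genome sequences, without alternate loci) were computed with Python 3.11.15, numpy 2.4.6, pandas 2.3.3, SciPy 1.17.1 and numba 0.67.0, and motif and word counts were tested on simulated sequences. The representative transcript was MANE Select, otherwise Ensembl canonical, otherwise the longest. Genes are named if they are among the 15 highest or 5 lowest in level, the 10 highest per kb, on a list, annotated as coding, microRNA hosts, head to head with a coding gene, or among the 5 with most elements in number or per kb; *LINC01232*, *LINC00960* and *LINC00476* fall outside and are named for completeness. Alternatives covered the symbols, the transcript, the window, the overlap and the element.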

Additional observations from a re-analysis of the deposited data

How the results depend on the processing

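No paired analysis was possible because each gene has a single pooled value, and for the same reason no replicate could be left out. Over 9 results, 11 of 21 alternatives were labelled as leaving the value the same and 10 as moving it. The number of genes and the medians have no interval, and for them even the shifts of the median count from 115 to 112 or 118 were labelled as moved. Taking current GENCODE names raised the number of genes from 28 to 198. The median mean normalized count, 115, was 112 over genes annotated as lncRNA and 163 over the 24 genes at or above the 10th percentile of listed genes. It was 95.2 over the 22 genes with at most 10% of words in transcripts of other genes and 118 over the 23 with at most 25% elsewhere in the genome; these 2 were chosen after seeing the data. Per kb the median fell from 90.4 to 34.4 with the longest transcript and 17.0 with the union of exons. Matching by symbol made 100% of the genes found lncRNA, in place of 96.4%, since the symbol *LINC00493* is not in the annotation. Overlap with a coding gene went from 35.7% to 14.3% on the same strand alone. The share of genes with at least 3 elements was 35.7%, against 71.4% with any. Shares were judged by exact (Clopper-Pearson) 95% intervals, which cover the number of genes only. The share above the median per kb, 32.1%, was 17.9% with the union of exons and 21.4% with the longest transcript, both within that interval.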
